A study of Mus musculus with 4 samples.

Results

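The mitochondrial respiratory chain was examined here as 80 nuclear genes, of 22180 genes named on the arrays, that encode subunits of its complexes. Genes were taken by symbol: Nduf followed by a, b, c, s or v and a digit for complex I, Sdha to Sdhd for complex II, Uqcr for complex III, Cox4 to Cox8 for complex IV and Atp5 for complex V. That gave 33, 4, 8, 17 and 18 genes. The symbols also caught a pair of pseudogenes, Uqcrh-ps1 and Atp5c1-ps. The values are log2 expression in liver RNA of male mice, wild type (WT) or knockout (KO) for the growth factor gene Nrg4, measured on Affymetrix Mouse Gene ST 2.1 arrays. Both genotypes had eaten a diet that causes non-alcoholic steatohepatitis (NASH) for 20 weeks, begun at 3 months of age, and were fed when the liver was taken. Each array held 1 pool of RNA, with 2 WT and 2 KO pools. The sources used here give neither the number of animals in a pool nor the way the Nrg4 allele was disrupted.

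The respiratory chain sits in the inner membrane of the mitochondrion. Complex I takes electrons from NADH and complex II from succinate, both hand them to ubiquinone, complex III passes them on to cytochrome c, and complex IV reduces oxygen. The proton gradient built on the way drives complex V, the ATP synthase. Hepatocytes are rich in mitochondria, and their chain serves fatty acid oxidation, gluconeogenesis and urea synthesis. A few subunits are encoded by mitochondrial DNA and the rest by the nucleus, and several nuclear subunits come in forms used by liver, muscle or testis.

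Nrg4 itself read 2.54 and 2.30 with the WT allele and 0.93 in each KO pool, a difference of -1.49 ± 0.20 (SE; limma, adjusted p = 0.182 over 22180 genes). No source used here says whether its probe set covers the deleted sequence. All 16 hepatocyte markers on the arrays exceeded the median probe set mean, and the samples are labelled as liver. The medians of the 4 arrays lay between 0.52 and 0.64, and the zero point of the scale is unknown. Levels of different probe sets are therefore not set against each other, and each gene is compared with itself across pools.

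Most chain genes were slightly lower in the KO livers, but no single one passed the test. Of the 80 genes, 72 reached the filter, a mean of 0.54, which is the median over probe sets, and were tested. Of these, 52 were lower in KO and 20 higher. Their median difference was -0.11 on the log2 scale, against 0.01 over all 12458 tested genes. The median deviation from the WT mean was -0.12 in each KO pool. The mean log2 value of the tested members was 5.14 and 5.03 in WT and 4.94 and 4.94 in KO. Among the members 72.2% were lower, whereas 48.4% of all tested genes were. Both KO pools lay under both WT pools in 32 members (44.4%), against a background of 19.5% of tested genes. They lay above both WT pools in 7 members (9.72%), against 22.2%. Both background shares, here and per complex, are over all levels of signal and change with it, as given below by range.

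limma (lmFit and eBayes, Benjamini-Hochberg adjustment over all tested genes) called no member in either direction at an adjusted p under 0.05, and the smallest adjusted p was 0.458. It called 0.0241% of tested genes lower and 0.0241% higher. At an unadjusted p under 0.05 there were 2 lower members, Cox7a2 and Atp5j, and 0 higher ones, against 3.92% of genes lower and 6.37% higher. Without WT pool 1 the chain median was -0.15, beside 0.03 over all tested genes. Without KO pool 2 it was -0.12, beside -0.02. When the variance was allowed to follow intensity, limma again called 0 members, while it called 0.698% of genes lower and 0.393% higher, and 7 members were lower and 0 higher at an unadjusted p under 0.05 (background 5.8% and 6.38%). The SE of a member's difference had a median of 0.20, and its 95% interval reached a median of 0.50 to either side. The unadjusted interval left out 0 in Cox7a2 and Atp5j and held it in the other 70. The p-values rest on how far 2 pools of a genotype lie apart, drawn by limma towards the spread over all tested genes. That prior carried 3.67 degrees of freedom and the residual 2. With 2 against 2, no exact permutation test can go below 0.333.

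**Figure D1:**
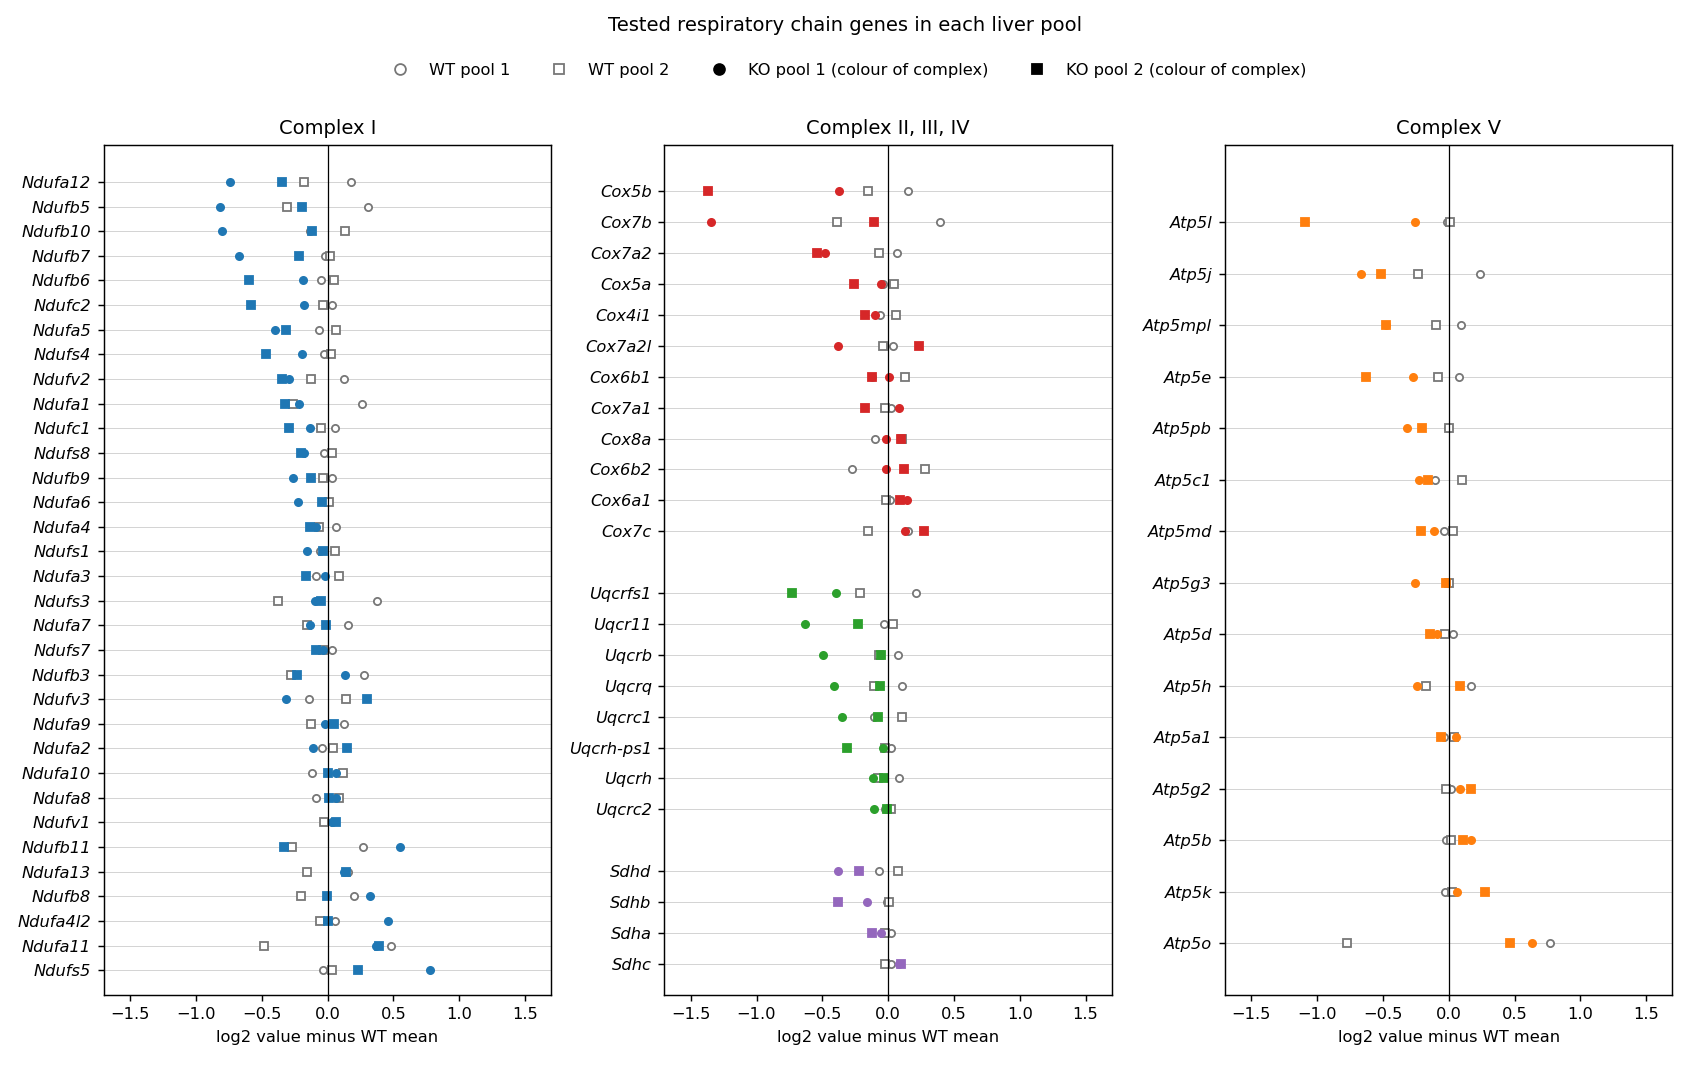
Log2 value minus the WT mean (x axis) for the 72 tested chain genes (rows), with WT pools as open and KO pools as filled symbols, circles for pool 1 and squares for pool 2. In 32 rows both filled symbols lie left of both open ones, and in 7 rows both lie right of them.

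The lower values were most frequent among probe sets of intermediate signal. Of 16 members with a mean log2 value from 3 to 5, 15 were lower in KO (93.8%) and the median was -0.41, whereas 49.2% of 3587 genes in that range were lower and their median was 0.00. From 5 to 7, 20 of 27 members were lower (median -0.16), beside 61.2% of 1976 genes (median -0.07). At 7 and over, 9 of 14 members were lower (64.3%, median -0.07), beside 68.8% of 561 genes (median -0.09). The brightest members thus sat at or near the values of other bright genes. Under 3, 8 of 15 members were lower, with a median of -0.04 beside 0.07 for 6334 genes. Over all tested genes, the share with both KO pools under both WT pools rose with signal. From the dimmest range to the brightest it was 13.7%, 19.0%, 32.0% and 45.5%, and among members 26.7%, 50%, 59.3% and 28.6%. The shares with KO above were 23.8%, 22.3%, 18.3% and 16.2% of genes and 6.67%, 6.25%, 7.41% and 21.4% of members. These ranges were chosen after the values were seen and are a description with no test.

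**Figure D2:**
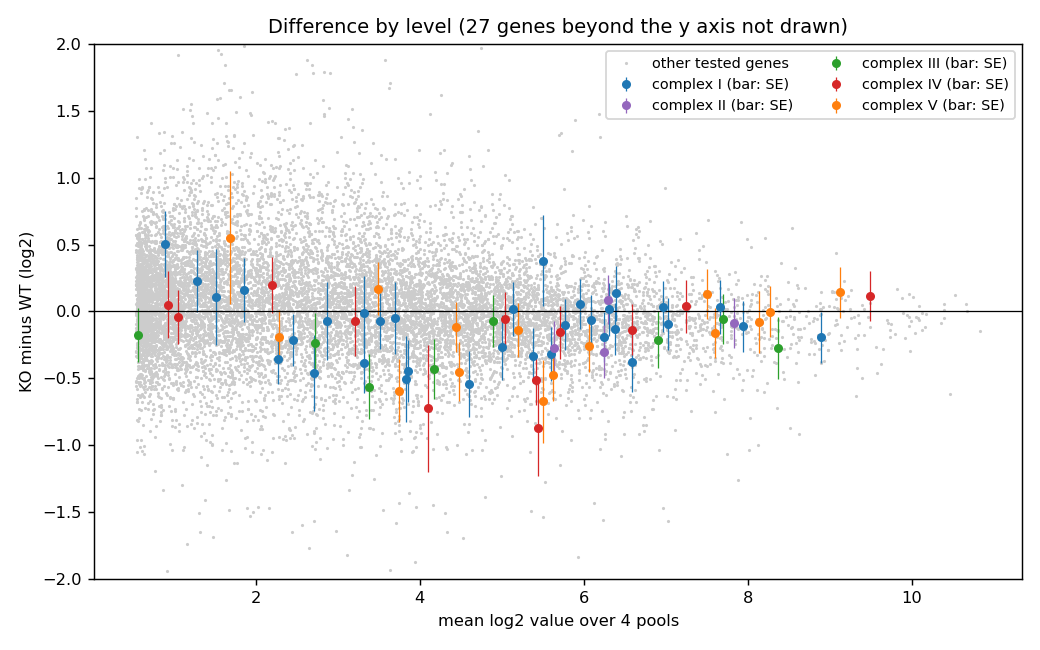
KO minus WT difference (y axis, log2) against the mean log2 value over 4 pools (x axis) for all tested genes (grey, 27 beyond the axis not drawn) and the chain members by complex, with SE bars. Members between 3 and 5 on the x axis lie mostly under 0, while those at 7 and over lie within 0.28 of it.

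Markers of some other cell types had higher or lower values in the same pools, and limma called none of them (smallest adjusted p = 0.181). When the variance was allowed to follow intensity, it called macrophage Marco and hepatocyte Cps1 lower, and macrophage Cd63 and stellate cell Pdgfra higher. It also called 1 cholangiocyte marker higher and 1 brown adipocyte marker lower, the latter from a list that also holds the chain members Cox7a1 and Cox8b. That fit called 0.698% of all tested genes lower and 0.393% higher. The 16 hepatocyte markers had a median difference of -0.11, equal to that of the chain at this rounding, with 12 lower and 4 higher (75% lower). All but Asgr1 and Asgr2 had a mean of 7 or over. All tested genes in that range had a median of -0.09 with 68.8% lower, so the markers sat near other bright genes. The mean log2 value of the hepatocyte markers was 9.19 and 9.17 in WT and 9.03 and 9.09 in KO, so the KO pools lay under both WT pools. The macrophage markers stood at a median of 0.55 (14 of 16 higher in KO), with mean values of 3.78 and 3.93 in WT and 4.34 in each KO pool. Marco, with the smallest p of that list, went the other way. It read 2.63 and 3.53 in WT and 0.76 and 0.66 in KO (-2.37 ± 0.33; limma, adjusted p = 0.181). The stellate cell markers stood at 0.68 (10 of 13 higher; means of 3.92 and 3.78 in WT, 4.30 and 4.38 in KO). That list was split. Hhip went the other way, with 1.68 and 1.32 in WT and 0.30 and 0.62 in KO (-1.04 ± 0.23; limma, adjusted p = 0.297). The pools of Dcn, Lrat, Reln, Des and Acta2 overlapped. Of 8 cholangiocyte markers 6 were tested, 5 of them higher, with a median of 0.79 and means of 2.04 and 1.64 in WT and 2.45 and 2.85 in KO. Without 1 pool that median ran from 0.46 to 1.22. Medians of the remaining lists were 0.08 for endothelial cells (10 of 10 markers tested), -0.02 for T and NK cells (9 of 12), 0.52 for B and plasma cells (3 of 5), 0.13 for striated muscle (5 of 11) and -0.22 for brown adipocytes (6 of 8), and the 1 erythroid marker stood at -0.07. The part of these shifts in the chain values was not tested. In whole liver RNA, fewer cells of a type and less RNA per cell cannot be told apart.

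Nuclear promoters of chain genes often carry sites for the factors NRF1 and GABP, an ETS family member. RefSeq start windows of assembly GRCm38.p6, from 250 bases before to 50 after a start, were found for 64 of the 80 members. The NRF1 motif, which reads the same on both strands and stands in capitals near the start of the Cox6a1 sequence, was in the windows of 5 members (7.81%) and of 1.07% of all 27025 genes with a window. The ETS motif CCGGAAG, searched on both strands, was in those of 17 members (26.6%) and 9.93% of genes. The motif TCAAGGTCA of oestrogen-related receptors, on both strands, was in 2 members (3.12%) and 0.466% of genes, and that of YY1 in 3 members (4.69%) and 0.755%. The 5 tested members with the NRF1 motif (Atp5g2, Atp5k, Cox6a1, Ndufa11 and Uqcrc1) had a median difference of 0.13, and the tested members without it one of -0.13. The 17 with the ETS motif had a median of -0.19 and those without it one of -0.09. Of the NRF1 members, Uqcrc1 was lower in KO, at -0.21, and the others higher. Of the ETS members, Atp5k, Cox6a1 and Cox8a were higher in KO and the others lower. Atp5k and Cox6a1 hold both motifs, and the ETS motif of Atp5k lies after the start, outside the stretch shown. A match is a description of these letters, and its bearing on the values was not tested. The stretches shown are those before the start, first of 3 NRF1 members higher in both KO pools and then of 4 ETS members lower in both, picked after their values were seen so that the motifs can be read in place. They are 5′ to 3′ on the gene's strand, with motifs in capitals. They lie at chr5:115348959-115349138 (minus strand), chr15:102671048-102671147 (minus), chr5:108434400-108434499 (minus), chr16:84834977-84835076 (minus), chr2:174464102-174464221 (minus), chr10:80406822-80406921 (minus) and chr8:83566658-83566757 (plus).
Cox6a1: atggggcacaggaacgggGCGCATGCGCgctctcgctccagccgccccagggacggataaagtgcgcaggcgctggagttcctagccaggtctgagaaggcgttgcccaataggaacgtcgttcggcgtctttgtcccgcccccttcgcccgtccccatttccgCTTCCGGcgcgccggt
Atp5g2: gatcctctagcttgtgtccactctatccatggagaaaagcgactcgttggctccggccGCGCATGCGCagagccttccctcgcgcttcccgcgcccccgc
Atp5k: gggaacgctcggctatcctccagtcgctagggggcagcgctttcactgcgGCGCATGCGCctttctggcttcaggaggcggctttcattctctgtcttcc
Atp5j: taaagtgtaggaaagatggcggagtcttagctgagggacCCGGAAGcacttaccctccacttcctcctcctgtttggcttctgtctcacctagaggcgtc
Atp5e: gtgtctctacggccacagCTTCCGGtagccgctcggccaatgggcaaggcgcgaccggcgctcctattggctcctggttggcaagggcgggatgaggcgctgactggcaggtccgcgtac
Uqcr11: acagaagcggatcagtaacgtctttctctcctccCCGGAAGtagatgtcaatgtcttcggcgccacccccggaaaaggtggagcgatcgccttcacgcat
Ndufb7: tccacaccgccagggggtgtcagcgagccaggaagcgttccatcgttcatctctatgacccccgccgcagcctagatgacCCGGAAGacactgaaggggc

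In complex I, the NADH dehydrogenase, 22 of 33 members were lower in KO and 11 higher, with a median of -0.09. Without WT pool 2 it was -0.16, and with quantile normalization -0.04. Both KO pools lay under both WT pools in 13 members (39.4%, against 19.5% of all tested genes) and above them in 2 (6.06%, against 22.2%), Ndufs5 and Ndufv1. The mean log2 value of its members was 4.88 and 4.74 in WT and 4.70 and 4.69 in KO. Ndufa12, an accessory subunit of the matrix arm, read 5.06 and 4.70 in WT and 4.13 and 4.53 in KO. Its groups did not overlap, and it differed by -0.54 ± 0.25 (SE; limma, adjusted p = 0.537), the smallest p of the complex, or -0.34 without KO pool 1. A dimmer probe set of Ndufa12, outside the gene table, differed by 0.21. Ndufb7, a small subunit of the membrane arm whose promoter is shown above, read 4.06 and 4.10 in WT and 3.41 and 3.86 in KO (-0.45 ± 0.23; adjusted p = 0.587; -0.22 without KO pool 1). Ndufa5, an accessory subunit of the matrix arm, read 2.39 and 2.51 in WT and 2.05 and 2.13 in KO (-0.36 ± 0.19; adjusted p = 0.601). In both the KO pools lay under the WT pools.

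Ndufs5 was the tested member of complex I with the largest difference upward, at 0.51 ± 0.25 (adjusted p = 0.569). It read 0.61 and 0.67 in WT and 1.42 and 0.87 in KO, close to the filter, and without KO pool 1 it stood at 0.23. A brighter probe set that Ndufs5 shares with its pseudogene read 5.52 and 4.84 in WT and 4.71 and 5.18 in KO, and there the groups overlapped. Ndufa11 at 0.38 ± 0.34 rested on WT pool 2, which read 4.82 while the other 3 pools lay between 5.67 and 5.79. Without WT pool 2 it stood at -0.10.

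The catalytic core of complex I carries the flavin and the iron-sulfur clusters, and its members lay between -0.32 and 0.05. Ndufv1, which binds NADH and the flavin, read 5.96 and 5.90 in WT and 5.96 and 5.99 in KO, a difference of 0.05 ± 0.19. Ndufs1, with iron-sulfur clusters of the NADH arm, read 5.76 and 5.88 in WT and 5.66 and 5.78 in KO (-0.10 ± 0.19). Ndufs7, next to the ubiquinone site, read 6.15 and 6.09 in WT and 6.09 and 6.03 in KO (-0.06 ± 0.19; above 0 with quantile normalization). Their SE exceeded these differences. Ndufs8, another iron-sulfur subunit, read 6.31 and 6.37 in WT and 6.16 and 6.14 in KO (-0.19 ± 0.19). Ndufv2 read 5.89 and 5.64 in WT and 5.47 and 5.41 in KO (-0.32 ± 0.20). Ndufs3 read 3.28 and 2.52 in WT and 2.81 and 2.85 in KO (-0.07 ± 0.29), so its KO pools fell between the WT pools. The 6 core members had a median of -0.09 and the other 27 one of -0.09.

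The remaining accessory subunits of complex I spread to both sides. Ndufb9, with 9.02 and 8.95 in WT and 8.72 and 8.86 in KO, stood at -0.19 ± 0.19, and Ndufs4, a subunit of the matrix arm, at -0.33 ± 0.20. Ndufb5 at -0.51 ± 0.32 and Ndufb10 at -0.46 ± 0.29 had overlapping pools, with KO pool 1 the lowest in both. Ndufa4, which bears a complex I name and has since been assigned to complex IV, read 8.06 and 7.92 in WT and 7.90 and 7.85 in KO (-0.11 ± 0.19). Its relative Ndufa4l2, known as a gene of hypoxia, read 1.23 and 1.11 in WT and 1.63 and 1.18 in KO (0.23 ± 0.23). Only KO pool 1 stood out there. The other 16 accessory members ran from -0.39 ± 0.22 in Ndufb6 to 0.16 ± 0.24 in Ndufb8. In 4 of them, Ndufb6, Ndufc2, Ndufc1 and Ndufa6, the KO pools lay under the WT pools, and in the other 12 the pools overlapped. Ndufc2, a subunit of the membrane arm, read 6.81 and 6.74 in WT and 6.60 and 6.20 in KO (-0.38 ± 0.22). Ndufa10, Ndufa2, Ndufa8 and Ndufa9 stood between 0.01 and 0.04, and all 4 turned below 0 with arrays centred on their medians.

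Complex II, succinate dehydrogenase, belongs to both the chain and the citric acid cycle and is wholly nuclear. Of its 4 genes, 3 were lower in both KO pools than in both WT pools and 1 was higher, beside 19.5% and 22.2% of all tested genes. The median was -0.18, or -0.11 without KO pool 2 and -0.10 with quantile normalization. Sdhd, a membrane anchor, read 6.32 and 6.47 in WT and 6.02 and 6.17 in KO (-0.30 ± 0.20; limma, adjusted p = 0.66). Sdhb, the iron-sulfur subunit, read 5.76 and 5.77 in WT and 5.61 and 5.39 in KO (-0.27 ± 0.20; adjusted p = 0.696; -0.16 without KO pool 2). Sdha, the flavoprotein that oxidises succinate, read 7.89 and 7.85 in WT and 7.82 and 7.75 in KO, a difference of -0.09 ± 0.19. The other anchor, Sdhc, went the opposite way, with 6.28 and 6.23 in WT and 6.33 and 6.35 in KO (0.09 ± 0.19).

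In complex III, the cytochrome bc1 complex, all 8 members had a lower KO mean, pseudogene included, with a median of -0.22. With quantile normalization and without WT pool 1, 7 of 8 did. Both KO pools lay under both WT pools in 3 (37.5%, against 19.5% of all tested genes). Among these was the pseudogene Uqcrh-ps1, at a mean of 0.56, close to the filter. KO pool 1 had a median deviation of -0.37 from the WT mean, and KO pool 2 one of -0.07. Without KO pool 1 the median of the complex was -0.07, and without KO pool 2 it was -0.37. Uqcrfs1, the Rieske iron-sulfur protein, had the smallest p. It read 3.87 and 3.45 in WT and 3.26 and 2.93 in KO (-0.56 ± 0.24; limma, adjusted p = 0.518; -0.35 without WT pool 1). Uqcr11, a small subunit whose promoter is shown above, read 4.35 and 4.42 in WT and 3.75 and 4.16 in KO (-0.43 ± 0.22; adjusted p = 0.587; -0.23 without KO pool 1). In both the KO pools lay under the WT pools.

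Uqcrb, which lies near the ubiquinone site, read 8.58 and 8.43 in WT and 8.01 and 8.45 in KO (-0.28 ± 0.23), and Uqcrq, a small membrane subunit, read 2.95 and 2.74 in WT and 2.43 and 2.78 in KO (-0.24 ± 0.22). In both, KO pool 1 was the lowest and KO pool 2 lay within the WT range. The core proteins Uqcrc1 and Uqcrc2 showed the same order on a smaller scale. Uqcrc1 read 6.91 and 7.12 in WT and 6.67 and 6.94 in KO (-0.21 ± 0.21). Uqcrc2 read 7.70 and 7.75 in WT and 7.62 and 7.72 in KO (-0.06 ± 0.19; above 0 with quantile normalization). Uqcrh, the hinge protein at cytochrome c1, stood at -0.07 ± 0.19 and Uqcrh-ps1 at -0.18 ± 0.20.

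Complex IV, cytochrome c oxidase, held the largest single differences of the chain and also several members near 0. Of its 17 genes 12 were tested, 8 lower and 4 higher, with a median of -0.07. Without WT pool 1 the median was -0.19, without KO pool 1 -0.12 and without KO pool 2 -0.04. Both KO pools lay under both WT pools in 4 (33.3%, against 19.5% of all tested genes) and above them in 1 (8.33%, against 22.2%). Cox7a2, the form of subunit VIIa used in liver, had the smallest p of all members. It read 5.74 and 5.61 in WT and 5.19 and 5.13 in KO, so the groups lay well apart. The difference was -0.51 ± 0.19 (SE; limma, unadjusted p = 0.0384, adjusted p = 0.458), a KO level of 70.1% of WT on the linear scale. Leaving out any 1 pool gave between -0.58 and -0.45.

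Cox5b, a zinc-binding subunit on the matrix side, read 6.03 and 5.72 in WT and 5.50 and 4.50 in KO. It had the largest difference of the tested members, -0.87 ± 0.36 (limma, adjusted p = 0.498), with KO pool 2 far under the rest; without KO pool 2 it was -0.37. A dimmer probe set of Cox5b differed by -0.37, but its mean of 0.09 was under the filter. It read 0.07 and 0.48 in WT and -0.23 and 0.04 in KO. Cox7b, a small membrane subunit, read 4.86 and 4.07 in WT and 3.12 and 4.36 in KO, and its groups overlapped (-0.73 ± 0.47; -0.11 without KO pool 1). Cox7c, also small, read 2.24 and 1.94 in WT and 2.22 and 2.36 in KO (0.20 ± 0.21).

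Cox4i1 and Cox5a, the first nuclear subunits to join the catalytic core, differed by less than their SE. Cox4i1 read 6.59 and 6.71 in WT and 6.55 and 6.48 in KO (-0.14 ± 0.19). Cox5a read 5.75 and 5.83 in WT and 5.74 and 5.53 in KO (-0.16 ± 0.20). Cox6a1, the form of subunit VIa outside muscle, read 9.44 and 9.41 in WT and 9.57 and 9.51 in KO (0.12 ± 0.19). It was the 1 tested member of the complex with both KO pools above both WT pools. Cox6b1 read 4.94 and 5.19 in WT and 5.07 and 4.94 in KO (-0.06 ± 0.20), and Cox8a read 7.12 and 7.33 in WT and 7.21 and 7.32 in KO (0.04 ± 0.20; below 0 with arrays centred on their medians). Cox7a2l, which links complexes III and IV into supercomplexes, read 3.29 and 3.21 in WT and 2.87 and 3.48 in KO (-0.07 ± 0.26). Its KO pools lay on either side of the WT pools.

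The muscle and testis forms were mostly near or under the filter. Cox6a2, the muscle form of subunit VIa, read 0.42 and 0.56 in WT and 0.62 and 0.50 in KO, and the muscle form Cox8b read 0.52 and 0.11 in WT and 0.68 and 0.42 in KO. Both were under the filter, like the testis forms Cox7b2 (0.17 and 0.00 in WT, 0.08 and 0.18 in KO) and Cox8c (-0.14 and -0.15 in WT, 0.23 and -0.18 in KO). Their pools overlapped. Cox7a1, the muscle form beside Cox7a2, passed the filter with 1.10 and 1.06 in WT and 1.16 and 0.91 in KO (-0.04 ± 0.20), and so did the testis form Cox6b2, with 0.62 and 1.18 in WT and 0.88 and 1.02 in KO (0.05 ± 0.25; below 0 with quantile normalization). Of 11 striated muscle markers 5 passed the filter, with mean log2 values between 0.52 and 1.09 over the pools. Cox4i2, a form known from lung and hypoxia, read 0.70 and 0.57 in WT and 0.14 and 0.34 in KO. Among the members under the filter it was the 1 whose groups did not overlap (-0.40 ± 0.20), at a mean of only 0.44. The share over all genes under the filter was not computed. Among tested genes with a mean under 3, both KO pools lay under both WT pools in 13.7% and above them in 23.8%.

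**Figure D3:**
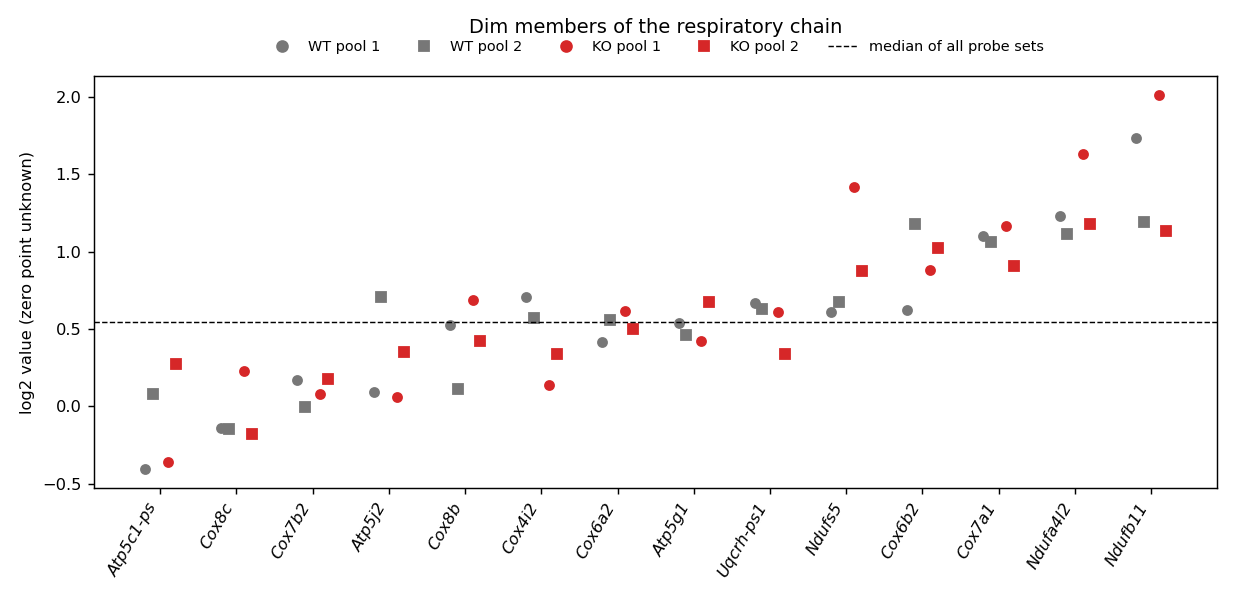
Log2 values in each pool (y axis) of the 8 members whose mean lay under the filter (dashed line) and of the 6 members next above it, ordered by mean. The pools of 7 of the 8 members under the line overlap between genotypes, with Cox4i2 the exception. Of tested genes with a mean under 3, 13.7% had both KO pools under both WT pools and 23.8% above them.

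The other members under the filter were in complex V. They were Atp5g1 (0.54 and 0.46 in WT, 0.42 and 0.67 in KO), Atp5j2, which encodes subunit f (0.09 and 0.70 in WT, 0.06 and 0.35 in KO), and the pseudogene Atp5c1-ps (-0.40 and 0.08 in WT, -0.36 and 0.27 in KO). Members just inside and just outside the filter were Uqcrh-ps1 at a mean of 0.56, and Atp5g1 and Cox6a2 at 0.52 each.

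In complex V, the ATP synthase, 11 of the 15 tested members were lower in KO and 4 higher, with a median of -0.14. It was -0.090 with quantile normalization and -0.23 without KO pool 2. Both KO pools lay under both WT pools in 9 (60%, against 19.5% of all tested genes) and above them in 3 (20%, near the 22.2% of all tested genes). Atp5j, a coupling factor of the stator stalk, read 4.28 and 3.81 in WT and 3.37 and 3.53 in KO. The difference was -0.59 ± 0.24 (limma, unadjusted p = 0.049, adjusted p = 0.484), 66.3% of the WT level, and it was -0.36 without WT pool 1. Atp5mpl, a small proteolipid bound to the enzyme, read 5.96 and 5.77 in WT and 5.39 in both KO pools (-0.48 ± 0.19; adjusted p = 0.49). Atp5l, subunit g of the membrane part, read 5.82 and 5.84 in WT and 5.58 and 4.74 in KO (-0.67 ± 0.31; adjusted p = 0.549). As with Cox5b, KO pool 2 was far under the rest, and without it the difference was -0.26. Atp5e, subunit epsilon of the central stalk, read 4.78 and 4.63 in WT and 4.43 and 4.08 in KO (-0.45 ± 0.22; adjusted p = 0.567; -0.27 without KO pool 2).

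The other subunits of the catalytic F1 part lay between -0.19 and 0.14. Atp5b, the catalytic beta subunit, read 9.03 and 9.07 in WT and 9.22 and 9.16 in KO (0.14 ± 0.19), with both KO pools above WT. Atp5a1, the alpha subunit, read 8.23 and 8.31 in WT and 8.33 and 8.21 in KO (0.00 ± 0.19), so its KO pools lay on either side of the WT pools. The gamma subunit Atp5c1, which turns inside the head, read 2.28 and 2.48 in WT and 2.15 and 2.22 in KO (-0.19 ± 0.20). Subunit delta, Atp5d, stood at -0.11 ± 0.19. No test of these against the small subunits was made.

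Subunit c, the rotating ring, is made from several genes with the same mature protein. Atp5g2 read 7.45 and 7.41 in WT and 7.52 and 7.60 in KO (0.13 ± 0.19), with KO above WT. Atp5g3 read 5.26 and 5.27 in WT and 5.01 and 5.25 in KO (-0.14 ± 0.20), with KO below WT. Atp5g1 was under the filter. In the membrane part and stator, Atp5pb, subunit b, read 6.19 and 6.20 in WT and 5.88 and 5.99 in KO (-0.26 ± 0.19), and Atp5k, subunit e, read 3.38 and 3.43 in WT and 3.47 and 3.69 in KO (0.17 ± 0.20). Atp5md stood at -0.16 ± 0.19 and Atp5h at -0.08 ± 0.23, the latter above 0 with quantile normalization. Atp5o, the protein that joins stalk and head, was at 0.55 ± 0.50, a value that rested on WT pool 2 (0.64, with the other 3 pools between 1.88 and 2.18) and was -0.22 without it.

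Probe sets of chain genes outside the gene table, 19 in all, gave a mixed picture. Of these, 9 were dimmer probe sets of members and 10 carried several symbols. In 4 of the 9 members with a dimmer probe set (Atp5e, Cox7b, Ndufa11 and Ndufa12) the probe sets differed in sign. Among the shared ones, Cox6c with its pseudogene read 7.96 in both WT pools and 7.91 and 7.85 in KO, and Ndufs6 with Ndufs6b read 7.35 in both WT pools and 7.08 and 7.05 in KO. A dimmer probe set of the same pair of genes overlapped in each case, at 0.10 for Cox6c and -0.21 for Ndufs6. Uqcr10 with its pseudogene read 3.39 and 3.09 in WT and 2.87 and 2.98 in KO. In these 3 brighter probe sets the KO pools lay under the WT pools, as in 7 of the 19 (36.8%; background 17.3% of 3155 named probe sets outside the table). In 3 they lay above (15.8%; background 19.7%).

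The subunits encoded by mitochondrial DNA were close to 0. Of 10 on the arrays 9 were lower in KO, with a median of -0.04, which was 0.080 without KO pool 1 and -0.17 without KO pool 2. Their log2 values averaged 9.89 and 9.73 in WT and 9.56 and 9.87 in KO, so the genotypes overlapped and KO pool 1 was the lowest. ND6, the one subunit of complex I on the light strand, read 7.96 and 7.78 in WT and 7.13 and 7.68 in KO (-0.47 ± 0.25; limma, adjusted p = 0.605). ND1 stood at -0.11 ± 0.24 and ND2 at -0.09 ± 0.22. In 12 further genes of the chain that the symbols did not catch, 10 were lower (median -0.26). Dmac2, an assembly factor of complex I, was at -0.82 ± 0.21 (adjusted p = 0.32) and Higd1a, a small inner membrane protein, at -0.50 ± 0.20. Atpif1, the inhibitor of the ATP synthase, was at 0.66 ± 0.26 (adjusted p = 0.483), with 5.25 and 4.91 in WT and 5.99 and 5.48 in KO. Cyc1, cytochrome c1 of complex III, and Cycs, cytochrome c, stood at -0.05 ± 0.19 and -0.29 ± 0.26.

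**Figure D4:**
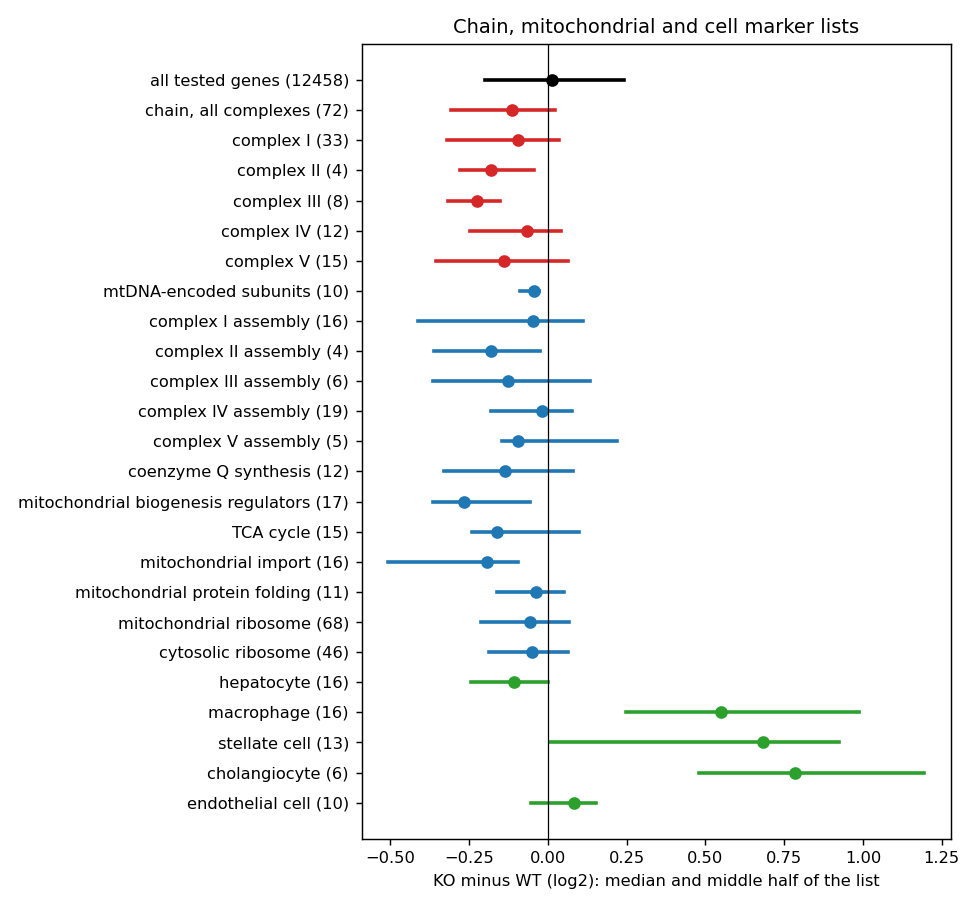
Median KO minus WT difference (dot, x axis, log2) and interquartile range (line) for all tested genes (black), chain complexes (red), mitochondrial and ribosome lists (blue) and cell type markers (green), with the number tested in brackets. Chain medians run from -0.22 (complex III) to -0.07 (complex IV), beside 0.01 for all tested genes.

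Genes that build and supply the chain were also compared. In 14 lists with 257 tested genes in all, limma called 0 genes in either direction at an adjusted p under 0.05, also when the variance followed intensity; 14 were lower and 4 higher at an unadjusted p under 0.05, beside 3.92% and 6.37% of all tested genes. Among assembly factors the medians were -0.05 for complex I (16 genes), -0.18 for II (4), -0.13 for III (6), -0.02 for IV (19) and -0.09 for V (5). Single pools moved these medians. Without 1 pool they ran from -0.22 to 0.15 for complex I, from -0.36 to -0.18 for II, from -0.20 to -0.010 for III, from -0.12 to -0.051 for IV and from -0.093 to 0.13 for V. These and the other list medians without a pool were computed after the values were seen. The genes differed in both directions. Lyrm2, a complex I factor, was at 1.03 ± 0.22 (adjusted p = 0.29), with 2.62 and 2.89 in WT and 3.93 and 3.63 in KO. Ecsit was at -0.87 ± 0.23 (adjusted p = 0.335) and Ndufaf6 at -0.80 ± 0.24 (adjusted p = 0.379).

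For complex II, Sdhaf3 was at -0.44 ± 0.21, Sdhaf4 at -0.33 ± 0.19 and Sdhaf2 at -0.02 ± 0.20. For complex III, Ttc19 was at 0.45 ± 0.20, Uqcc3 at -0.45 ± 0.21 and Uqcc1 at -0.43 ± 0.34. For complex IV, Cox20 was at -0.46 ± 0.22, Pet100 at -0.45 ± 0.22 and Cox14 at -0.28 ± 0.20. The ATP synthase factors were divided, with Atpaf2 at 0.74 ± 0.20 (adjusted p = 0.338), Tmem70 at 0.22 ± 0.21 and Atpaf1 at -0.34 ± 0.19. In coenzyme Q synthesis, with 8 of 12 genes lower (median -0.14, or -0.069 without KO pool 2 and -0.074 without WT pool 1), the methyltransferase Coq3 was at -0.73 ± 0.26, Coq10b at -0.50 ± 0.30 and Coq10a at 0.47 ± 0.20.

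Regulators of mitochondrial biogenesis had a median of -0.27, with 14 of 17 tested genes lower, though in 13 of the 17 the pools overlapped. Both KO pools lay under both WT pools in 3 (17.6%), no more than the 19.5% of all tested genes. The median was -0.10 without KO pool 1 and also without WT pool 1. Ppargc1b, a coactivator of mitochondrial genes, read 3.28 and 2.83 in WT and 2.42 and 2.41 in KO (-0.64 ± 0.23; limma, adjusted p = 0.439). Ppargc1a, its relative induced by fasting, read 4.48 and 4.25 in WT and 4.01 and 4.16 in KO (-0.28 ± 0.20). The deacetylase Sirt3 was at -0.27 ± 0.19 and Tfb1m, a methyltransferase of mitochondrial ribosomal RNA, at 0.31 ± 0.20. Nrf1 and Gabpa, whose motifs were searched above, stood at -0.07 ± 0.20 and 0.00 ± 0.20.

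In the citric acid cycle list 10 of 15 genes were lower (median -0.16, or -0.095 without KO pool 1), among them Sucla2 at -0.29 ± 0.20 and Idh3a at -0.36 ± 0.25, while Dlat, of the pyruvate dehydrogenase complex, was at 0.51 ± 0.23. Protein import had 13 of 16 genes lower (median -0.19, or -0.12 without KO pool 2). In 9 of the 16 both KO pools lay under both WT pools (56.2%, against 19.5% of all tested genes), and in 0 above them. Timm9 was at -0.66 ± 0.22, Tomm20, a receptor of the outer membrane, at -0.52 ± 0.21 and Timm44 at -0.50 ± 0.20. Mitochondrial chaperones and proteases had a median of -0.04 (-0.13 to 0.022 without 1 pool), with the chaperonin Hspe1 at -0.87 ± 0.37, Lonp1 at 0.27 ± 0.19 and Clpx at -0.25 ± 0.19. The 68 mitochondrial ribosome genes had a median of -0.06 (43 lower; -0.11 to -0.041 without 1 pool), with Mrpl46 at -0.71 ± 0.21, Mrpl23 at -0.43 ± 0.19 and Mrps27 at -0.46 ± 0.22. The 46 cytosolic ribosome genes had a median of -0.05 (27 lower; -0.10 to -0.025 without 1 pool), with Rps26 at -1.03 ± 0.30, Rpl37a at -0.77 ± 0.30 and Rps27 at 0.94 ± 0.35. Whether any of these lists differs from the chain was not tested.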

How the data were processed

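The values are the log2 expression values the authors deposited for 41345 probe sets on 4 arrays. The submitters' processing notes name RMA, limma and oligo, and the sources used here give no version, order or genome build. GEO's platform annotation gave 1 symbol to 23521 of them. Each gene was represented by its brightest probe set by mean, which left 22180 genes; the 12458 whose mean reached 0.54, the median over probe sets, were tested. The genotypes were compared with limma 3.58.1 (R 4.3.3) without covariates. Residual degrees of freedom were 2 and prior ones 3.67, and p-values were adjusted by Benjamini-Hochberg over the tested genes. Members under the filter were read from a fit of all genes. The number of arrays limits the precision.

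The members and lists were chosen with earlier results of these data known. Genes named with values are the 4 members of each complex with the smallest p, the brightest member and the catalytic core of each complex, the isoform groups, all members under the filter, Nrg4 and the 3 genes of each pathway list with the smallest p. Any other gene was picked with its values known. The scripts were tested on simulated data before use. Alternatives changed the scaling, the filter, the probe set, the variance model and the pools, and added the pool number as a block. The labels do not say that pools of the same number are related. The difference between pool 1 and pool 2 in WT and in KO correlated at -0.04 over the tested genes, so the numbers were not taken as pairs. No scan date was used.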

Additional observations from a re-analysis of the deposited data

Results flagged for a closer look

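Among the 19 chain probe sets outside the gene table, 3 had both KO pools above both WT pools (15.8%; background 19.7% of 3155 named probe sets outside the table). The dimmer probe set of Atp5e read 1.06 and 1.03 in WT and 1.18 and 1.43 in KO, a difference of 0.26, while its brighter one differed by -0.45. That of Cox7b read 0.57 and 0.34 in WT and 1.01 in both KO pools, a difference of 0.56, beside -0.73 for the brighter one. That of Ndufa8 read 2.22 and 2.47 in WT and 2.75 and 3.05 in KO, a difference of 0.55, beside 0.04. The probe sets of Atp5e and Cox7b therefore differ in sign, and the signs of those genes depend on the probe set chosen.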

How the results depend on the processing

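No chain member was called by limma under any of the 12 alternatives, and the chain median stayed between -0.16 and -0.08. Complex medians stayed under 0: between -0.16 and -0.04 for complex I and between -0.19 and -0.04 for IV. With quantile normalization the median was -0.10 for complex II (reported as -0.18) and -0.090 for complex V (reported as -0.14). Without 1 pool it lay between -0.17 and -0.11, that of complex III between -0.37 and -0.070 and that of complex V between -0.23 and -0.14. Over all genes limma called 6 as reported, 136 when the variance followed intensity and 0 without any 1 of the 4 pools (0 to 0). With the pool number as a replicate block it called 2 genes lower and 0 higher, against 3 lower and 3 higher as reported, and 0 members. The causes of these changes were not tested. Small differences changed sign in 5 members with centred arrays (Ndufa10, Ndufa2, Ndufa8, Ndufa9 and Cox8a) and in 5 with quantile normalization (Ndufs7, Uqcrc2, Cox6b2, Atp5a1 and Atp5h). More changed when a pool was left out: 10 without WT pool 1, 9 without WT pool 2, 5 without KO pool 1 and 8 without KO pool 2. The number of arrays limits what can be seen: with 2 pools a genotype, intervals of single members reached about 0.50 to either side.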
